A study of Culter alburnus with 6 samples.

Results

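Proteasome and ubiquitin enzyme genes were examined in TCCF2022 cells, a line grown from the caudal fin of Topmouth culter (Culter alburnus) and labelled as fibroblasts. The members were the rows of the deposited TPM table with the KEGG pathway Proteasome, or with a protein name in the NR database that contains ubiquitin-conjugating enzyme or ubiquitin carboxyl-terminal hydrolase. Of 168 such rows, 149 reached a TPM of 1 in 3 or more of the 6 libraries and were kept, out of 37532 rows of the whole table that passed the same minimum and 61608 rows in all. They held 48 proteasome rows, 38 rows of ubiquitin-conjugating enzymes (E2) and 63 rows of ubiquitin carboxyl-terminal hydrolases. Each row is a gene assembled de novo from the reads, and TPM is its transcript level scaled for length and for the library total.

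The 2 groups were cells given 5 μM Forskolin (F, n = 3 libraries) and cells given none (CK, n = 3 libraries), both wild type and both collected at day 7. All were kept in DMEM/F12 with 10% fetal bovine serum and bFGF at 27 °C. Cells given Forskolin make more of the second messenger cAMP. The dose is that of the sample notes and of the account of the sequenced libraries, while the general culture methods give a lower Forskolin dose, and more bFGF in the media with and without it than the sample notes do. The 6 libraries come from 1 cell line, and the methods call the 3 libraries of a group biological replicates without saying whether they are separate cultures.

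Ubiquitin is a small protein that is joined to other proteins in a cascade of activating (E1), conjugating (E2) and ligating (E3) enzymes. Proteins that carry ubiquitin chains are unfolded and cut by the 26S proteasome, which is built from a 20S core of alpha and beta subunits and a 19S cap of ATPase and non-ATPase subunits. Ubiquitin carboxyl-terminal hydrolases remove ubiquitin again, mainly as cysteine proteases of the USP and UCH families. In dividing cells the anaphase-promoting complex uses this cascade to remove cyclins and other cell cycle proteins. Names of rows come from the closest proteins of other species, and the roles given below are those known in mammals and yeast.

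Differences were tested as log2(TPM + 1) with limma over all 37532 rows, and log2 changes are F minus CK throughout. A row passed at a Benjamini-Hochberg adjusted p under 0.05. Of all rows, 12.2% passed, 6.15% higher in F and 6.07% lower, and in 32.1% the F and CK values did not overlap, 16.4% with all F values above and 15.7% with all F values below. For a single row an exact permutation test of 3 against 3 libraries cannot go below p = 0.1. Read numbers are not held in TPM, and counting errors are therefore unknown. In whole-culture RNA, fewer cells of a type and less RNA per cell cannot be told apart.

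Libraries and labels were checked once for what touches these genes. The library F2 held the highest value in 25.6% of all rows tested, and in 24 of 38 E2 rows and 38 of 63 hydrolase rows, so values without it are given below. Of 14 fibroblast markers 8 were measured, with summed levels of 2845 to 3988 TPM in F and 3520 to 3831 TPM in CK. Decorin passed higher in F, and lumican (214 to 310.5 TPM in F, 1298 to 1558 TPM in CK) and Twist1 passed lower. Of 13 epithelial markers 7 were measured, and their summed levels were lower in F without overlap, at 5386 to 5906 TPM in F and 6636 to 6882 TPM in CK. Epcam (29.3 to 32.5 TPM in F, 77.2 to 90.5 TPM in CK) and Cldn4 passed lower, and the keratins Krt8 and Krt18 made up most of the sum. Of 11 muscle markers 0 had a row, and of 9 immune markers only Mpeg1 was measured, at 2.25 TPM or less. All 15 measured proliferation markers passed and were higher in F, with summed levels of 493 to 661 TPM in F and 265 to 323 TPM in CK. The part of these marker differences in the member values was not tested.

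Among the 149 members, 19 passed and were higher in F and 1 passed and was lower, which is 13.4% against 12.2% of all rows. The members were more abundant, with a median over rows of 32.5 TPM against 3.17 TPM for all rows. Among the 9968 rows with a mean of at least 10 TPM, 24.4% passed. Of the 19, 11 were E2 rows, 5 were hydrolase rows and 3 were proteasome rows, and the row that fell was the hydrolase Usp24. Without CK1, CK2 or CK3 the members higher in F numbered 9, 6 and 8, and without F1, F2 or F3 they numbered 9, 13 and 16. Calls over all rows also fell. From 2310 rows higher with all libraries, 1201, 931 and 1163 were left without CK1, CK2 or CK3. Without F1, F2 or F3, 1140, 1577 and 1944 were left. Of the 20 passing members, 7 passed with each single library left out (Ube2c, Ube2e3-B, Ube2j2, Ube2s, Usp10, Usp21-like and Usp24), and 13 lost the call without at least 1 library. With a log2 change beyond 1 in size as a further condition, 4 members were higher (Usp64E-B, Usp64E-D, Usp21-like and Ube2e2) and 1 was lower (Usp24), against 3.27% of all rows higher, 3.9% lower and 7.18% in either direction. Without regard to the test, all F values lay above all CK values in 53 members and below in 12. Of all rows 16.4% lay above and 15.7% below, and of the 9968 rows with a mean of at least 10 TPM, 2870 above and 2166 below. The median log2 change of the members was 0.12, against -0.01 for all rows tested.

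**Figure D1:**
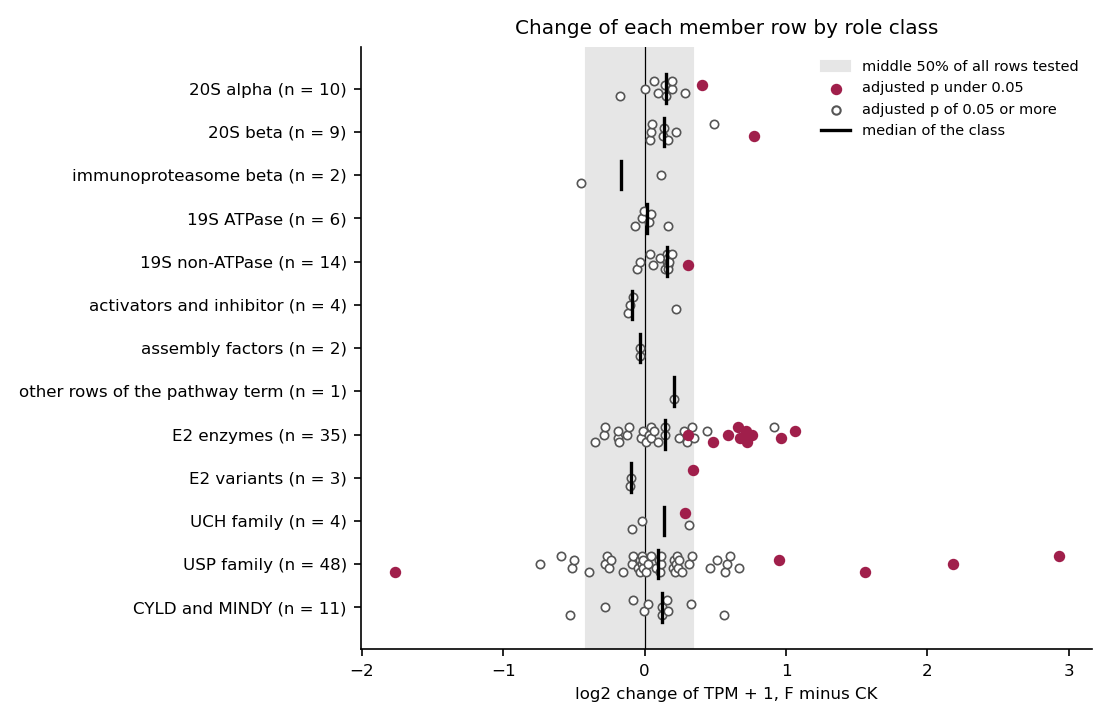
Log2 change of TPM + 1, F minus CK, of each of the 149 member rows by role class, with filled points at an adjusted p under 0.05 (limma), a bar at the median of the class and a grey band over the middle 50% of all rows tested. The 20S and 19S rows stay close together near the median of 0.14, whereas the E2 enzymes reach 1.06 and the USP family runs between -1.77 and 2.93.

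The differences of the 26S proteasome subunits between the groups were small in size and mostly upward in F. The 20S core and 19S cap held 39 rows, of which 33 had a positive log2 change, against 49% of all rows, and 38 lay within 0.5 of no change. Their changes ran from -0.18 to 0.77 with an SD of 0.16 over rows, whereas the SD over all rows tested was 0.77. Of these rows 3 passed higher and 0 lower, which is 7.69% against 12.2% of all rows. Among the rows with a mean of at least 10 TPM the share was 24.4%. At an unadjusted limma p under 0.05 there were 11 of the 39 rows. Of all rows 25.7% had such a p, as had 4387 of the 9968 rows with a mean of at least 10 TPM. All F values lay above all CK values in 15 of the 39 rows and below in 0, against 16.4% and 15.7% of all rows. Of the 9968 rows with a mean of at least 10 TPM, 2870 lay above and 2166 below. With 1 library left out, 0 to 2 of the proteasome rows passed, and 0 passed without CK1, CK2 or F1. Of all rows, 931 to 1944 then passed higher, against 2310 with all libraries. Without the library CK3 the median log2 change of the core and cap was 0.07 instead of 0.14, and CK3 held the lowest value in 20 of the 39 rows.

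Summed over the 39 rows, core and cap transcripts made 7524, 7177 and 7807 TPM in F and 7356, 7075 and 6544 TPM in CK, a mean 7.31% higher in F. The groups overlapped, since F2 lay below CK1. The 10 alpha rows summed to 1830 ± 101 TPM in F and 1620 ± 113 TPM in CK, and the 9 beta rows to 2185 ± 128 TPM in F and 2009 ± 196 TPM in CK (SD, n = 3 libraries each). The 6 ATPase rows, which unfold substrates at the base of the cap, stayed level at 754 ± 18.7 TPM in F and 746.5 ± 35.3 TPM in CK. They were Psmc1a, Psmc1b, Psmc2, Psmc4, Psmc5 and Psmc6. No member row was named for the ATPase Psmc3, so the sums lack it. The 14 non-ATPase rows, which hold the ubiquitin receptors and the lid, summed to 2734 ± 68.3 TPM in F and 2616 ± 78.3 TPM in CK. Within these sums the row Sem1 alone made 984 TPM in F and 1022 TPM in CK (log2 change -0.06). Of the 14 rows, 12 had a positive log2 change.

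**Figure D2:**
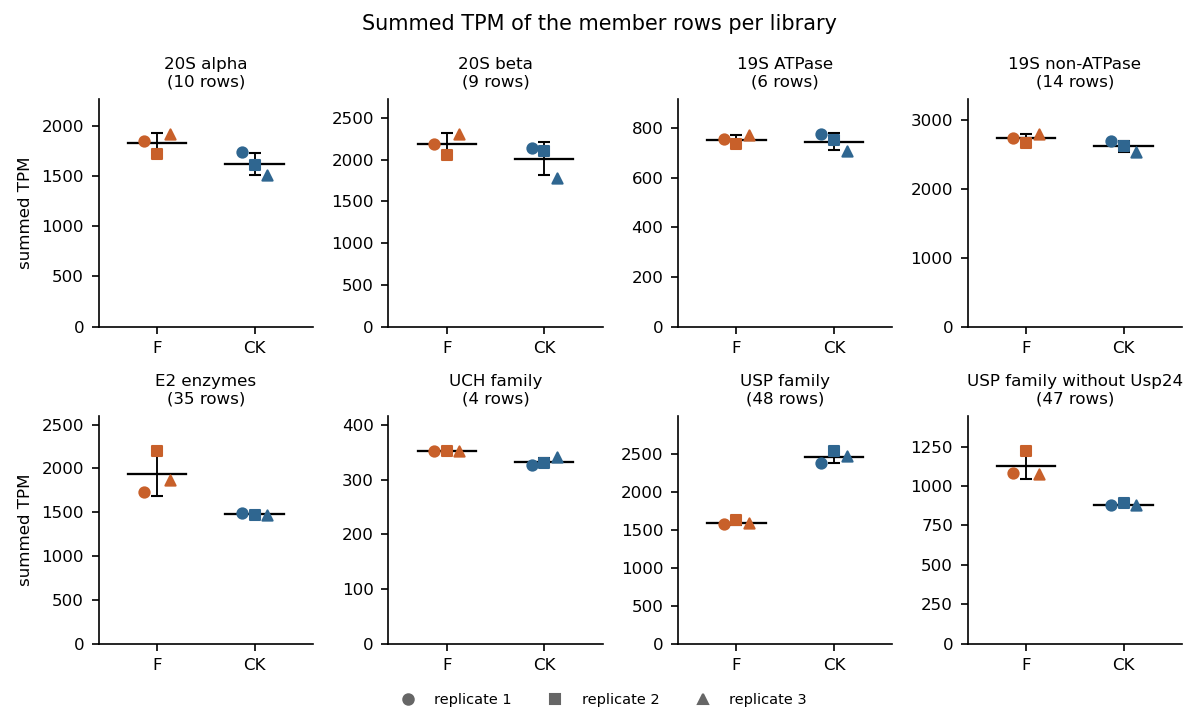
Summed TPM of the member rows of a class in each library (symbols by replicate number), with the mean and SD over 3 libraries, F left of CK and each axis starting at 0. The 20S and 19S sums differ by at most 12.9% between the group means, the E2 enzymes are 30.7% higher in F with F2 on top, and the USP family is lower in F with Usp24 and higher without it.

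The 3 proteasome rows that passed were Psmd4a, Psma8 and Psmb7-like. Psmd4, the Rpn10 subunit, is a receptor of the cap for ubiquitin chains. Its row Psmd4a had 94.8, 98.5 and 91.4 TPM in F and 75.7, 76.8 and 77.1 TPM in CK, a log2 change of 0.31 (SE 0.06, adjusted p = 0.0224 from limma). All F libraries lay above all CK libraries, and the call was lost without CK1, CK2, CK3 or F1. The second copy, Psmd4b, had 161 to 166 TPM in F and 139 to 154 TPM in CK, also without overlap, but did not pass (adjusted p = 0.169 from limma).

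Psma8 is an alpha subunit that in mammals takes the place of Psma7 in the testis, and the Swiss-Prot match of its row was Psma7 itself, so the row may stand for either. It had 365, 417 and 379 TPM in F and 314, 291 and 269 TPM in CK, without overlap, with a log2 change of 0.41 (SE 0.09, adjusted p = 0.0326 from limma). The call was lost with each of the 6 libraries left out (adjusted p between 0.0557 and 0.115 from limma), at log2 changes of 0.35 to 0.46. Psmb7 carries the trypsin-like site of the core, and a second row of that name, Psmb7-like, had 15.0, 15.3 and 14.6 TPM in F and 7.41, 7.66 and 10.2 TPM in CK. It was higher in F by 0.77 (log2, SE 0.14, adjusted p = 0.0182 from limma), again without overlap, and the call was lost without CK1, CK2, F1 or F2. It made only 3.32% of the summed Psmb7 and Psmb7-like TPM in F and 2.14% in CK, and with all 3 rows of the Swiss-Prot name Psmb7 summed, the scarce Psmb10 among them, the log2 change was 0.18 and did not pass (adjusted p = 0.169 from limma).

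The main catalytic and structural subunits gave smaller differences. Psmb5, which carries the chymotrypsin-like site, had 190, 210 and 197 TPM in F and 186, 170 and 157 TPM in CK, and its log2 change of 0.22 did not pass (adjusted p = 0.155 from limma). Psmd14, the Rpn11 metalloprotease that cuts chains from substrates at the cap, had 122, 108 and 132 TPM in F and 133, 125 and 112 TPM in CK. Its groups overlapped, as did those of the ATPase Psmc4, with 110, 109 and 117 TPM in F and 119, 119 and 103 TPM in CK. Psma4, chosen after its values were seen, came closest to the threshold among the remaining subunits, with 338, 340.2 and 360.5 TPM in F and 307, 274 and 272 TPM in CK (log2 change 0.28, adjusted p = 0.0585 from limma).

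**Figure D3:**
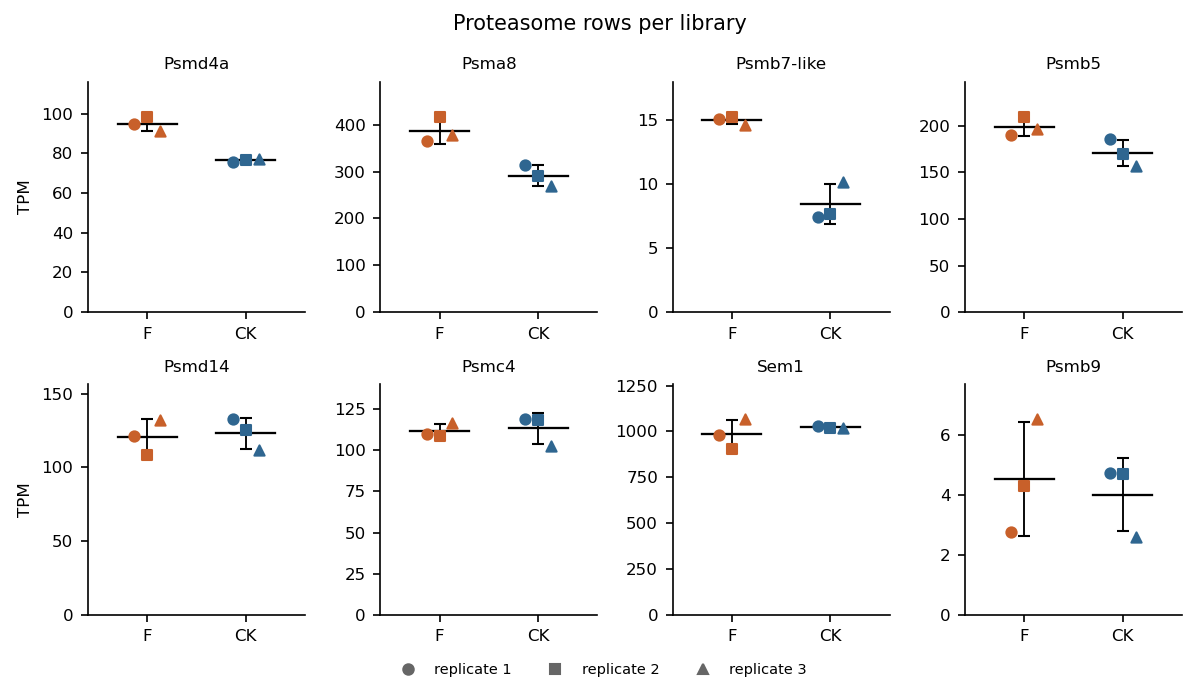
TPM of 8 proteasome rows in each library (symbols by replicate number), with the mean and SD over 3 libraries, F left of CK and each axis starting at 0. Psmd4a, Psma8, Psmb7-like and Psmb5 separate the groups, and Psmd14, Psmc4, Sem1 and Psmb9 overlap.

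Levels differed far more between subunits than between the groups. Sem1, a small acidic subunit of the cap that also belongs to other complexes, was the most abundant proteasome row at 984 ± 79.8 TPM in F and 1022 ± 5.82 TPM in CK. It was followed by Psmb4 with 449 TPM in F and 409 TPM in CK, and by Psmb7 with 436 TPM in F and 389 TPM in CK. Among the ATPases the means over all 6 libraries ran from 49.9 TPM (Psmc1b) to 186 TPM (Psmc5). The lowest row of the core was Psma6l at 3.75 TPM, beside Psma6 with 69.5 to 88.0 TPM in F and 73.2 to 84.7 TPM in CK, and reads of such copies could have been divided among their rows.

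The 9 proteasome rows outside the core and cap gave 0 passing members by limma, and 1 at an unadjusted p under 0.05. Of all rows, 12.2% passed and 25.7% had such an unadjusted p. The activators and the inhibitor summed to 311 ± 8.77 TPM in F and 318 ± 2.81 TPM in CK. Psme3, the nuclear activator PA28 gamma, had 58.9, 72.0 and 61.7 TPM in F and 54.6, 53.7 and 56.0 TPM in CK, without overlap (log2 change 0.22, adjusted p = 0.188 from limma). Its cytoplasmic relatives were near level, with 158 to 172 TPM in F and 170.1 to 178 TPM in CK for Psme1, and 47.7 to 53.4 TPM in F and 53.5 to 54.3 TPM in CK for Psme2, whose F values all lay below those of CK. The inhibitor PI31 (Psmf1) had 29.0 to 33.5 TPM in F and 31.3 to 36.9 TPM in CK. The assembly factor Pomp, which guides the core together, had 367, 260.4 and 380.1 TPM in F and 351, 349 and 315 TPM in CK, with F2 alone below CK. The cap chaperone Psmd9 had 21.5 to 28.7 TPM in F and 24.4 to 28.6 TPM in CK.

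Of the interferon-induced subunits of the immunoproteasome, Psmb9 and Psmb10 were scarce. Psmb9 had 2.76, 4.32 and 6.53 TPM in F and 4.73, 4.71 and 2.60 TPM in CK, and Psmb10 had 1.79, 2.62 and 0.64 TPM in F and 2.06, 1.94 and 3.71 TPM in CK. Both overlapped between groups. A row named proteasome subunit beta type-8, the remaining such subunit, lay outside the rule because it carries no pathway entry, and it had 97.9, 109 and 77.7 TPM in F and 118, 117 and 195 TPM in CK (log2 change -0.56, adjusted p = 0.197 from limma). All F values lay below all CK values for this row, and CK3 stood highest. It held no Swiss-Prot gene name. A second row, named beta type-8-like and with the Swiss-Prot name Psmb8, did carry the pathway entry. That second row fell below the TPM minimum, with means of 0.723 TPM in F and 0.807 TPM in CK. The row with the Swiss-Prot name Adrm1b, a ubiquitin receptor, carried the NR name and the domains of laminin alpha-5, so its levels of 53.1 to 63.6 TPM in F and 44.7 to 52.5 TPM in CK cannot be assigned to the proteasome.

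Of the 3 name groups, the ubiquitin-conjugating enzymes held the largest share of passing rows. Of 38 rows, 11 passed and were higher in F and 0 were lower. The share higher in F was 28.9%, against 6.15% of all rows. Of the 9968 rows with a mean of at least 10 TPM, 1275 passed higher and 1160 lower, which is 24.4% in either direction. The median log2 change of the 38 rows was 0.14, and 26 of 38 were positive. For the E2 enzymes without the variants the median was 0.145, but 0.072 without F2 and 0.279 without F3. All F values lay above all CK values in 17 of the 38 rows and below in 2, against 16.4% and 15.7% of all rows. Of the 9968 rows with a mean of at least 10 TPM, 2870 lay above and 2166 below. The sum of the 35 E2 enzymes without the variants was 1732, 2201 and 1863 TPM in F and 1488, 1473 and 1472 TPM in CK. All 11 rows that passed had their highest value in F2, and without F2 9 E2 rows passed higher and 1 lower. With any 1 of the CK libraries or F1 left out, between 4 and 7 E2 rows passed higher. Of all rows, 1577 passed higher and 1888 lower without F2, and 931 to 1201 passed higher without a CK library or F1. With all libraries 2310 passed higher and 2277 lower.

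The E2 enzymes of the anaphase-promoting complex and the one of the Fanconi anaemia pathway all lay higher in F. Ube2c, which starts ubiquitin chains on targets of the anaphase-promoting complex, had 86.0, 99.5 and 95.0 TPM in F and 55.9, 42.9 and 44.5 TPM in CK. The groups were far apart, with a log2 change of 0.96 (SE 0.12, adjusted p = 0.00552 from limma). Ube2s, which lengthens those chains, had 23.1, 23.4 and 20.04 TPM in F and 12.8, 12.4 and 13.8 TPM in CK (log2 change 0.72, SE 0.10, adjusted p = 0.00787 from limma). Both passed with any single library left out. Ube2t, which serves the repair of DNA crosslinks, had 23.6, 41.9 and 23.0 TPM in F and 13.7, 13.9 and 16.1 TPM in CK and missed the threshold (log2 change 0.92, adjusted p = 0.0565 from limma). Its F2 value stood apart from F1 and F3, and without F2 the row passed.

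These 3 rows lay beside the proliferation markers, all of which were also higher in F. Cdc20, the activator of the anaphase-promoting complex, had 61.1, 74.7 and 56.0 TPM in F and 29.1, 20.3 and 18.7 TPM in CK (log2 change 1.47, SE 0.19, adjusted p = 0.00625 from limma). Ccna2, a cyclin that this complex removes, had 39.1, 45.4 and 34.1 TPM in F and 19.4, 15.2 and 15.7 TPM in CK (log2 change 1.19, adjusted p = 0.00478 from limma). Cdc20 and the inhibitor Fbxo5 (Emi1) passed higher. They were 2 of 14 measured subunits and regulators of the complex, of which 0 passed lower. Of all rows 6.15% passed higher and 6.07% lower. All F values lay above all CK values in 10 of the 14 and below in 0, against 16.4% and 15.7% of all rows. Whether the share of dividing cells plays a part in the E2 values was not tested.

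The largest change of an E2 was that of Ube2e2, a member of the UBE2E family with a long N-terminal extension. It had 203, 333 and 280.4 TPM in F and 132, 131 and 119 TPM in CK, with a log2 change of 1.06 (SE 0.18, adjusted p = 0.0151 from limma). The 3 F values were spread more widely than the CK values but stayed above them. Leaving out CK1, CK2 or CK3 kept the size between 1.02 and 1.09 and gave adjusted p values between 0.0516 and 0.0605 from limma, so the call was lost without any 1 CK library. Of the related rows, Ube2e3-B had 63.1, 73.7 and 68.3 TPM in F and 44.3, 40.9 and 41.9 TPM in CK (log2 change 0.67, SE 0.08, adjusted p = 0.00477 from limma). Ube2e3-A had 99.8, 158 and 119.8 TPM in F and 91.9, 94.5 and 86.2 TPM in CK, also without overlap, and did not pass (log2 change 0.44, adjusted p = 0.154 from limma). Ube2e3-B held no Pfam domain, and the Swiss-Prot match of Ube2e3-A was Ube2e1, so both names are uncertain. A further row with the Swiss-Prot name Ube2e3 lay outside the rule, with 49.7 to 70.5 TPM in F and 44.8 to 46.1 TPM in CK. Its groups did not overlap, and it did not pass (log2 change 0.31, adjusted p = 0.222 from limma).

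E2 enzymes of the endoplasmic reticulum differed among themselves. Ube2j2, anchored in that membrane and active in the removal of misfolded proteins, had 53.6, 63.9 and 63.3 TPM in F and 36.5, 36.1 and 32.97 TPM in CK (log2 change 0.76, SE 0.09, adjusted p = 0.00552 from limma). Its relative Ube2j1 had 36.7, 54.0 and 40.2 TPM in F and 51.9, 50.7 and 56.0 TPM in CK, with overlap through F2. Ube2j2 made 58.2 ± 3.62% of the summed TPM of the pair in F and 40.0 ± 2.52% in CK (SD, n = 3 libraries each), and the shares did not overlap. Ube2g2, a soluble E2 of the same pathway, had 44.4 to 47.4 TPM in F and 40.9 to 46.9 TPM in CK.

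Shares within 8 pairs of related rows, chosen after their values were seen, did not overlap between the groups in 7. The exception was Ube2e3-B, with 35.6% of the summed Ube2e3-B and Ube2e3-A TPM in F and 31.8% in CK. In each pair the share was that of a row that had passed higher in F, beside a row that had not passed. A higher share in F was therefore close to fixed by this choice, and no p is given for the shares. Ube2k builds chains linked through lysine 48, the usual signal for the proteasome. Ube2kb passed with 66.3, 80.2 and 61.5 TPM in F and 43.8, 38.3 and 43.0 TPM in CK (log2 change 0.71, SE 0.12, adjusted p = 0.0132 from limma), and it made 63.9% of the summed Ube2ka and Ube2kb TPM in F and 56.0% in CK. Cdc34 is the E2 of the SCF ligases, and its row had 76.1, 91.7 and 72.7 TPM in F and 56.7, 54.7 and 58.9 TPM in CK (log2 change 0.48, SE 0.10, adjusted p = 0.0290 from limma). A second row with the same Swiss-Prot match, Ube2r1, went the other way, with 11.2, 10.9 and 12.5 TPM in F and 14.9, 15.0 and 15.1 TPM in CK, and missed the threshold (log2 change -0.35, adjusted p = 0.0637 from limma).

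Ube2n builds chains linked through lysine 63 together with a variant, Ube2v1 or Ube2v2, that lacks the catalytic cysteine. Ube2n-B had 67.2, 68.6 and 61.7 TPM in F and 51.2, 55.2 and 52.9 TPM in CK (log2 change 0.30, SE 0.07, adjusted p = 0.0413 from limma), and Ube2n-A had 94.2 to 114 TPM in F and 96.2 to 96.9 TPM in CK. Ube2v2-A had 149.7, 160.1 and 137 TPM in F and 124, 116 and 111 TPM in CK (log2 change 0.34, SE 0.08, adjusted p = 0.0430 from limma). Ube2v1 had 65.2 to 71.1 TPM in F and 70.1 to 75.8 TPM in CK, with overlap. Ube2v2-A made 68.5 ± 1.65% of the pair in F and 61.5 ± 0.465% in CK, without overlap (SD, n = 3 libraries each).

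**Figure D4:**
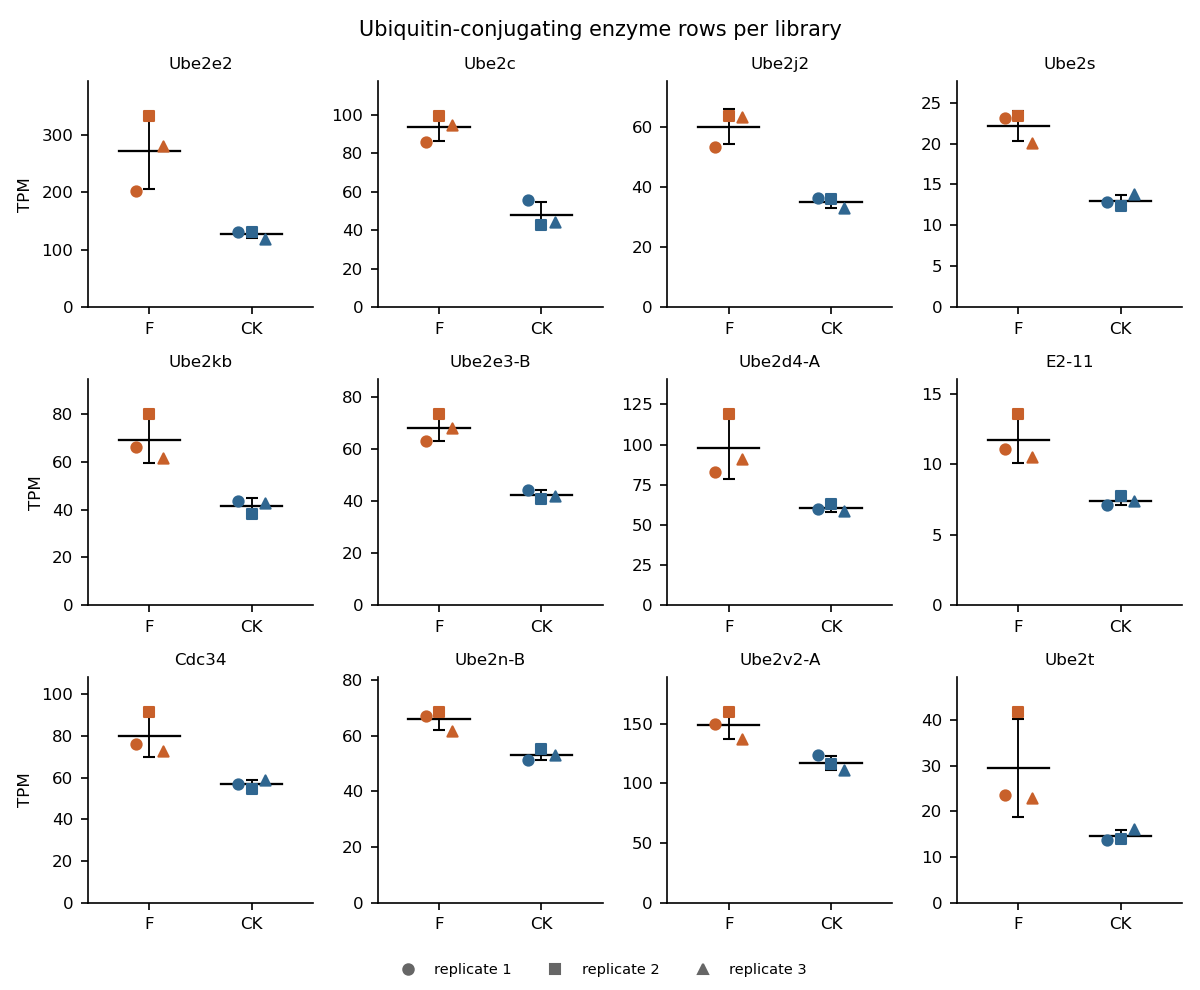
TPM of the 11 E2 rows that passed and of Ube2t in each library (symbols by replicate number), with the mean and SD over 3 libraries, F left of CK and each axis starting at 0. In all 12 panels the F values lie above the CK values and F2 is the highest library. Of all 38 E2 rows, F lay above without overlap in 17, and F2 was the highest library in 24.

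Of the broad-range E2 enzymes of the UBE2D group, only Ube2d4-A passed. Ube2d4-A had 83.0, 119 and 90.7 TPM in F and 60.1, 63.2 and 58.4 TPM in CK (log2 change 0.66, SE 0.14, adjusted p = 0.0294 from limma), and F2 again stood apart. Ube2d3 had 61.8 to 66.7 TPM in F and 60.2 to 67.9 TPM in CK, a log2 change of 0.01. Between them lay Ube2d2, Ube2d2l and Ube2d4-B, at log2 changes of 0.34, 0.28 and 0.14. Of these rows only Ube2d2l did not overlap between the groups. A row named E2-11, of no assigned role, passed at a lower level with 11.1, 13.6 and 10.5 TPM in F and 7.13, 7.72 and 7.39 TPM in CK (log2 change 0.59, adjusted p = 0.0348 from limma). Ube2a-A and Ube2b, relatives of yeast Rad6, and Ube2h, Ube2g1 and Ube2q1 all overlapped between the groups, with log2 changes from -0.11 to 0.04. The row Ube2a-B also overlapped, at -0.19. A more abundant row with the Swiss-Prot name Ube2g1 lay outside the rule, with 42.4 to 52.5 TPM in F and 34.4 to 37.9 TPM in CK. Its groups did not overlap, and it did not pass (log2 change 0.36, adjusted p = 0.0657 from limma). The highest E2 means after Ube2e2 were those of Ube2v2-A and of the Ube2l3-A and Ube2l3-B rows, of which Ube2l3-A, an E2 of HECT and RBR ligases, had 123 to 139 TPM in F and 121 to 126 TPM in CK.

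Ubiquitin carboxyl-terminal hydrolases included the member with the smallest adjusted p, Usp24. Of 63 rows, 5 passed higher and 1 lower, which is 9.52% against 12.2% of all rows. The median log2 change of the 63 rows was 0.10. Without F2, 3 passed higher and 2 lower, and the median of the USP rows was -0.003 instead of 0.093. Of all rows, 1577 passed higher and 1888 lower without F2, against 2310 and 2277 with all libraries. Most hydrolase rows lay at low levels, with a median over rows of 10.7 TPM. Usp24, a large USP enzyme, had 489, 400.1 and 509 TPM in F and 1498, 1651 and 1599.9 TPM in CK. It was the most abundant member in CK, and each F value lay far below each CK value, at a fold of 0.294 (log2 change -1.77, SE 0.11, adjusted p = 0.000623 from limma). It passed without each single library and under each other processing that was tried. Because of this row the 48 USP rows summed to 1594 ± 26.5 TPM in F and 2465 ± 84.2 TPM in CK, whereas the 47 other rows summed to 1128 ± 83.2 TPM in F and 882 ± 7.32 TPM in CK (SD, n = 3 libraries each).

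Usp10 gave the opposite direction at a high level. Usp10, which removes ubiquitin from p53 and from ribosomal proteins and binds a stress granule protein, had 339, 368 and 362 TPM in F and 171, 201 and 181 TPM in CK. All F values lay well above all CK values, a 1.93-fold difference (log2 change 0.95, SE 0.08, adjusted p = 0.00167 from limma). It accounted for most of the higher sum of the 47 rows. Usp21-like had 19.9, 19.5 and 21.1 TPM in F and 5.37, 5.85 and 7.54 TPM in CK, a 3.23-fold difference (log2 change 1.56, SE 0.14, adjusted p = 0.00185 from limma). Its Swiss-Prot match was Usp12, so its name is uncertain, and the row named Usp12 had 9.38 to 11.3 TPM in F and 10.2 to 11.6 TPM in CK.

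Low rows with an uncertain identity made up the largest positive changes. Usp64E-B had 10.1, 9.80 and 16.9 TPM in F and 3.82 TPM in CK1 and was listed at 0 in CK2 and CK3. Usp64E-D had 5.94, 6.38 and 5.09 TPM in F and 2.36 TPM in CK1 and was also listed at 0 in CK2 and CK3. Both are named for a fly enzyme and held no Pfam domain, and both passed (adjusted p = 0.0365 and 0.0426 from limma) on a scale where the size of the change depends on the value added before the logarithm. With a pseudocount of 0.1 neither passed. The row Usp64E-A had 1.01 to 5.19 TPM in F and 3.77 to 5.80 TPM in CK, with overlap.

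**Figure D5:**
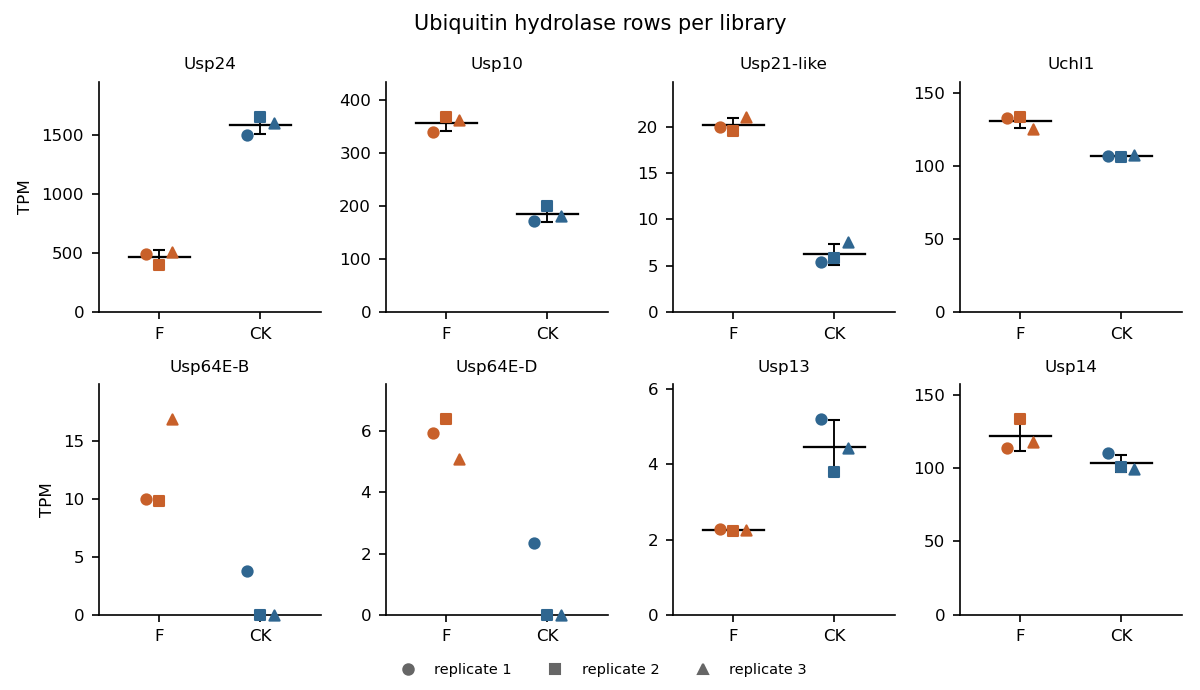
TPM of 8 ubiquitin hydrolase rows in each library (symbols by replicate number), with the mean and SD over 3 libraries where no library is listed at 0, F left of CK and each axis starting at 0. Usp24 and Usp13 lie lower in F, the other 6 rows lie higher, and in all 8 the groups do not overlap. The rows shown are the 6 that passed, Usp14, and Usp13, which was chosen after its values were seen. Of all 63 hydrolase rows, F lay above without overlap in 19 and below in 9, against 16.4% and 15.7% of all rows.

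The UCH family, small hydrolases with a papain-like fold, was measured as 4 rows. Uchl1, abundant in neurons of mammals, had 133, 134 and 125 TPM in F and 107, 106 and 108 TPM in CK (log2 change 0.29, SE 0.06, adjusted p = 0.0261 from limma), without overlap. The call was lost without CK1, CK2, CK3 or F1 (adjusted p between 0.0879 and 0.118 from limma). Uchl5, which sits on the proteasome cap, had 29.9, 37.1 and 31.4 TPM in F and 25.4, 26.4 and 26.4 TPM in CK and did not pass (log2 change 0.31, adjusted p = 0.0984 from limma). Uchl3 had 164 to 181 TPM in F and 179 to 193 TPM in CK, and Bap1, a nuclear enzyme that acts on histone H2A, had 14.6 to 17.5 TPM in F and 14.7 to 17.0 TPM in CK. Both overlapped.

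Usp14, the other hydrolase that docks on the cap, had 114, 133 and 118 TPM in F and 110, 101 and 99.4 TPM in CK, without overlap (log2 change 0.23, adjusted p = 0.141 from limma). Usp13 and Usp36 were the rows closest to the threshold in this group apart from Cyld-A, and both were chosen after their values were seen. Usp13 had 2.28, 2.22 and 2.27 TPM in F and 5.20, 3.79 and 4.44 TPM in CK (log2 change -0.74, adjusted p = 0.0553 from limma). Its paralogue Usp5, which takes apart free chains, had 112 to 145 TPM in F and 108 TPM in each CK library. Usp36, a nucleolar enzyme, had 13.8, 16.9 and 10.8 TPM in F and 8.57, 8.97 and 8.96 TPM in CK (log2 change 0.57, adjusted p = 0.0833 from limma).

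Cyld, which removes chains linked through lysine 63 and head to tail and restrains NF-kappa B signalling, was split over 4 member rows that did not move one way. Cyld-A had 14.8, 15.6 and 14.2 TPM in F and 18.1, 18.1 and 18.7 TPM in CK (log2 change -0.28, adjusted p = 0.0829 from limma). Cyld-C lay the other way, with 16.7, 19.1 and 14.9 TPM in F and 13.5, 13.6 and 12.5 TPM in CK (log2 change 0.33, adjusted p = 0.137 from limma). Cyld-B and Cyld-D overlapped between the groups. The MINDY rows are named for a family that trims chains linked through lysine 48, although 3 of them carry the name of an inactive member. They gave 0 passing rows by limma, as did the Cyld members. Of the 11 member rows of both names, 2 had an unadjusted limma p under 0.05. Of all rows, 12.2% passed and 25.7% had such an unadjusted p. The most abundant, Mindy1, had 45.2 to 52.0 TPM in F and 42.8 to 46.7 TPM in CK. A row named Usp18-like lay among the lowest levels, with 1.16 to 1.24 TPM in F and 1.82 to 2.44 TPM in CK (adjusted p = 0.224 from limma). Its Swiss-Prot match was Usp37, so its name is uncertain. The row with the Swiss-Prot name Usp18 lay outside the rule. That row had 1.70 to 2.42 TPM in F and 1.81 to 2.93 TPM in CK, with overlap (log2 change -0.09, adjusted p = 0.858 from limma).

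Genes upstream and downstream of the members were read from lists of the pathway. Of 10 measured genes for ubiquitin and related modifiers, 0 passed by limma and 5 had an unadjusted p under 0.05 (25.7% of all rows did). All F values lay above all CK values in 5 and below in 1, against 16.4% and 15.7% of all rows. The polyubiquitin row Ubb, the source of free ubiquitin, had 11413, 10641 and 11551 TPM in F and 11366, 12566 and 12012 TPM in CK, with overlap. Of 9 activating enzyme genes 2 passed higher and 0 lower, against 6.15% and 6.07% of all rows. These were Sae1 of the SUMO pathway, with 59.1, 56.3 and 54.1 TPM in F and 39.7, 36.1 and 33.2 TPM in CK (log2 change 0.63, adjusted p = 0.00802 from limma), and Uba3 of the NEDD8 pathway, with 24.5, 26.4 and 24.7 TPM in F and 20.4, 19.5 and 20.3 TPM in CK (log2 change 0.31, adjusted p = 0.0464 from limma). Uba1, the main activating enzyme for ubiquitin, had 54.3 to 69.4 TPM in F and 64.5 to 67.9 TPM in CK.

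Rows of ligases passed in both directions, and of all rows 6.15% passed higher in F and 6.07% lower. Of 27 cullin and SCF genes 1 passed higher, the scaffold Cul2 (log2 change 0.34), and of 36 RING and U-box ligases 3 passed higher, Traf2, Traf3 and Uhrf1. Of 25 HECT and RBR ligases 3 passed lower, Hectd2, Arih2 and Rnf19b. Rnf19b had 7.35, 7.43 and 7.22 TPM in F and 15.1, 14.8 and 15.5 TPM in CK, the clearest of them (log2 change -0.95, adjusted p = 0.00249 from limma). Of 7 COP9 signalosome genes 0 passed by limma and 4 had an unadjusted p under 0.05 (25.7% of all rows did). All F values lay above all CK values in 5 and below in 1, against 16.4% and 15.7% of all rows. Of 19 genes for p97 and its partners 1 passed lower, Sel1l of the endoplasmic reticulum, with 19.2, 20.9 and 17.9 TPM in F and 29.1, 29.9 and 31.7 TPM in CK (log2 change -0.62, adjusted p = 0.00848 from limma). Vcp, which is p97 itself, had 398 to 442 TPM in F and 409 to 457 TPM in CK.

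Of 24 measured deubiquitinases of other families 1 passed higher and 0 lower, against 6.15% and 6.07% of all rows. It was Tnfaip3 (A20), an inhibitor of NF-kappa B signalling. Its row had 12.8, 14.4 and 8.87 TPM in F and 3.86, 3.43 and 3.39 TPM in CK (log2 change 1.49, SE 0.20, adjusted p = 0.00680 from limma). Of 12 regulators of proteasome genes 1 passed higher and 2 lower, again against 6.15% and 6.07% of all rows. Nfe2l1, the factor that raises proteasome genes when the proteasome is impaired, had 44.7, 45.1 and 38.0 TPM in F and 31.1, 30.6 and 32.97 TPM in CK (log2 change 0.42, adjusted p = 0.0324 from limma). The NR name of that row is nuclear factor erythroid 2-related factor 3, so the row may belong to a relative. Nfe2l2 (Nrf2) had 105, 126 and 121 TPM in F and 155, 169.6 and 178 TPM in CK (log2 change -0.51, adjusted p = 0.0195 from limma).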

How the data were processed

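TPM values were computed by the authors and deposited as 1 table of 6 libraries with protein matches and pathway terms. The paper's methods describe Trinity assembly and RSEM, and the submitters' notes name RSEM 1.3.3 together with DESeq2 1.24.0, Cufflinks 2.2.1 and TopHat2 2.1.1, leaving the route to the values unsettled. The rows carry Trinity identifiers. Depth cannot be read from TPM, and no counts were used. Deposited means of each group, which differ from those computed from its libraries by at most 3.3e-07 TPM, were not used. The table was read in Python 3.11.15 (pandas 2.3.3, NumPy 2.4.6) and plotted with matplotlib 3.10.9.

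Values were taken as log2(TPM + 1) for each row that reached 1 TPM in 3 or more of the 6 libraries. Linear models were fitted in R 4.3.3 by the lmFit and eBayes (trend on) functions of limma 3.58.1, two-sided, with Benjamini-Hochberg adjustment over 37532 rows. Before use the fit was tested on simulated data. Of the rows that met the name rule, 19 fell below the minimum. The lowest member kept, Usp64E-C, had a mean of 0.985 TPM, and the highest row left out, a MINDY-4B row, reached 6.12 TPM in F3 and was listed at 0 in 4 libraries. Of the members, 45 shared a Swiss-Prot name with another member and 13 held no Pfam domain. Letters after a name separate such rows. A further 16 tested rows with related names in the table lay outside the rule, among them the abundant beta type-8 row and Usp7. In each gene list a symbol was read from its row with the highest mean TPM. The members and gene lists were chosen with earlier results of these data known.

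Named rows were, in each role class, the one with the smallest adjusted p and the one with the highest mean, the 10 largest rises and falls among passing rows, each row past a log2 change of 1, the small proteasome classes, and a list of known enzymes; of each gene list, up to 4 genes with the smallest adjusted p and the most abundant gene. Further rows were named after their values were seen. Results of some genes are not reported here. No sequences are shown, since the annotation given here could not be joined to assembled rows.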

Additional observations from a re-analysis of the deposited data

How the results depend on the processing

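The direction of every member that passed was kept under each alternative tried, and of the 20 passing members 18 passed with a pseudocount of 0.1, 14 with no filter, 19 with a filter at 5 TPM, 20 with median-of-ratios scaling, 20 with quantile normalization and 10 without a trend in eBayes. Ube2c, Ube2e3-B, Ube2j2, Ube2s, Usp10, Usp21-like and Usp24 passed with each single library left out. Leaving out 1 library gave 6 to 16 members higher and 1 to 3 lower, 0 to 2 proteasome rows higher, 4 to 10 E2 rows higher and 0 to 1 lower, 2 to 4 hydrolase rows higher and 1 to 2 lower, 3 to 11 genes of the pathway lists higher and 2 to 8 lower (11 and 7 with all libraries), and 931 to 1944 of all rows higher and 1006 to 1888 lower (2310 and 2277 with all libraries). Counts of members higher in F fell by more than 1.5 times without CK1, CK2, CK3 or F1, and not without F2 or F3. Fewer libraries by themselves give fewer calls.

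Replicate numbers are shared by the groups, but deviations of samples with the same number correlated at only 0.006, 0.009 and 0.006, so the numbers were not taken to pair the samples, although each F library correlated best with its own number. With the replicate block 6 members were higher, among them 4 E2, 2 hydrolase and 0 proteasome rows, with 4 list genes higher and 3 lower, and 941 of all rows higher and 1071 lower. Without a trend in eBayes 9 members were higher and 2 lower, with 1 proteasome row, 6 E2 rows and 2 hydrolase rows higher, 2 hydrolase rows lower, and 4 list genes higher and 3 lower. A log2 change beyond 1 as a further condition left 4 members higher, with 0 proteasome, 1 E2 and 3 hydrolase rows, and 1229 of all rows higher and 1465 lower.

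Lower members numbered 3 with a filter at 5 TPM (2 hydrolases and 1 E2), 3 with median-of-ratios scaling (3 hydrolases), and 2 with a pseudocount of 0.1 and with quantile normalization (2 hydrolases each). Hydrolase rows higher numbered 3 with no filter and with a pseudocount of 0.1. List genes with no filter were 4 higher and 4 lower. With TPM summed per Swiss-Prot gene name 1 proteasome row and 5 list genes were higher, and Usp12 turned to a log2 change of 0.80 because its sum holds Usp21-like. The causes of the other shifts were not tested.

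Median log2 changes ran from 0.069 to 0.175 for the core and cap, 0.108 to 0.178 for the non-ATPase rows, 0.044 to 0.195 for the beta rows and -0.132 to 0.338 for the 3 E2 variants when 1 library was left out, and the E2 variants turned positive without CK2 or F2, and with a filter at 5 TPM (0.121). The median was 0.054 for the ATPase rows with quantile normalization and 0.15 for the immunoproteasome rows with TPM summed per Swiss-Prot gene name. The value of 0.15 does not describe the immunoproteasome alone. Psmb10 carries the Swiss-Prot name Psmb7, so that setting summed it with the far more abundant Psmb7. Median-of-ratios scaling moved the median of all rows from -0.012 to -0.015 and quantile normalization to 0.020. TPM hold no read numbers, so levels of a few TPM, such as those of Psmb9 and Psmb10, cannot be given a counting error.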

Other observations

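Genes of the SUMO pathway, a ubiquitin-like modifier, stood outside the name rule and were read after their values were seen. Uba2, the activating partner of Sae1, had 30.3, 29.7 and 25.7 TPM in F and 24.9, 23.1 and 20.2 TPM in CK, without overlap, and did not pass (log2 change 0.32, adjusted p = 0.131 from limma). The modifier gene Sumo3 had 32.2, 50.7 and 28.8 TPM in F and 19.6, 20.5 and 12.8 TPM in CK and missed the threshold (log2 change 1.02, adjusted p = 0.0559 from limma). Its F2 value stood apart from F1 and F3.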
